A study of Homo sapiens with 9 samples.

Results

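Cyclin K and the cyclins and cyclin-dependent kinases (CDKs) that act on RNA polymerase II were followed in A549 cells, an established human lung adenocarcinoma line, after Cyclin K was depleted with siRNA. The genes were chosen by name, with earlier results of these data known: CCNK, CDK12, CDK13, CDK7, CCNH, MNAT1, CDK8, CDK19, CCNC and CCNL1. Of these 10 genes, 9 were found by symbol among the 31080 reference genes measured, each on 1 row, and all 9 passed the filter on low values. MNAT1, which encodes the assembly factor of the CDK7 complex, was not analysed here.

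The study asked how Cyclin K acts in lung cancer cells. Cells were transfected for 48 h with a scrambled siRNA (siCtrl in the labels, called scrambled here) or with 1 of 2 siRNAs against Cyclin K, siCyclin K#1 and siCyclin K#2. Each group has 3 libraries of total RNA, 9 altogether, and every library comes from the same cell line with no other alteration named. The study's methods speak of independent experiments for its data in general, but the labels do not say whether the 3 libraries of a group came from separate cultures. If they did not, p-values measure only the spread between these libraries, which may be technical.

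Cyclin K binds CDK12 and CDK13, and these kinases phosphorylate the repeated C-terminal domain (CTD) of RNA polymerase II while it elongates, above all on long genes and on genes of DNA repair. CDK7 with Cyclin H and MNAT1 forms the CDK-activating kinase, which sits in the general transcription factor TFIIH and phosphorylates the CTD as the polymerase leaves the promoter. CDK8 or its paralog CDK19 joins Cyclin C, MED12 and MED13 in the kinase module of Mediator, the complex that links transcription factors to the polymerase. Cyclin L1 is a partner of the CDK11 kinases and is tied to splicing.

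Depth was even, at 31333749 to 33767961 reads per library as read back from the steps of the low FPKM values. FPKM is the number of fragments scaled by gene length and by library depth, so levels of different genes are given per length. The length that fits most values is that of all annotated exons. Shares, ratios and ranks across genes therefore depend on the annotation. As a check of the label, 6 of 7 A549 markers were well expressed, with KRT8 between 49.7 and 105 FPKM and ALDH1A1 between 529 and 982 FPKM over all libraries. The other, KRT19, lay between 0 and 0.107 FPKM. Of 5 markers of other cell types, PTPRC (leukocytes) and PECAM1 (endothelium) stayed at or below 0.0119 FPKM and DCN (fibroblasts) at or below 0.0919 FPKM, and ALB was not analysed here. COL1A1 (fibroblasts) was at 2.03 ± 0.218, 14.0 ± 0.572 and 3.19 ± 0.0999 FPKM (SD, n = 3) in scrambled, siCyclin K#1 and siCyclin K#2 libraries. Its part in the results was not tested.

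CCNK mRNA fell to 11.5% of its scrambled level with siCyclin K#1 and to 12% with siCyclin K#2, and the genes of its kinase partners did not follow it down. With both siRNAs, CDK12, CDK7, CDK8 and CDK19 rose, and CCNK and CCNH (Cyclin H) fell. CDK7 with siCyclin K#1 and CCNH with siCyclin K#2 no longer passed the test in 6 and 7 of 19 alternative analyses. CDK12 and CDK19 rose most, to 2.29 times the scrambled level or more on the fitted scale with either siRNA. CCNC (Cyclin C) and CCNL1 (Cyclin L1) passed no test against scrambled. The plot of FPKM by library shows each of the 9 genes.

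**Figure D1:**
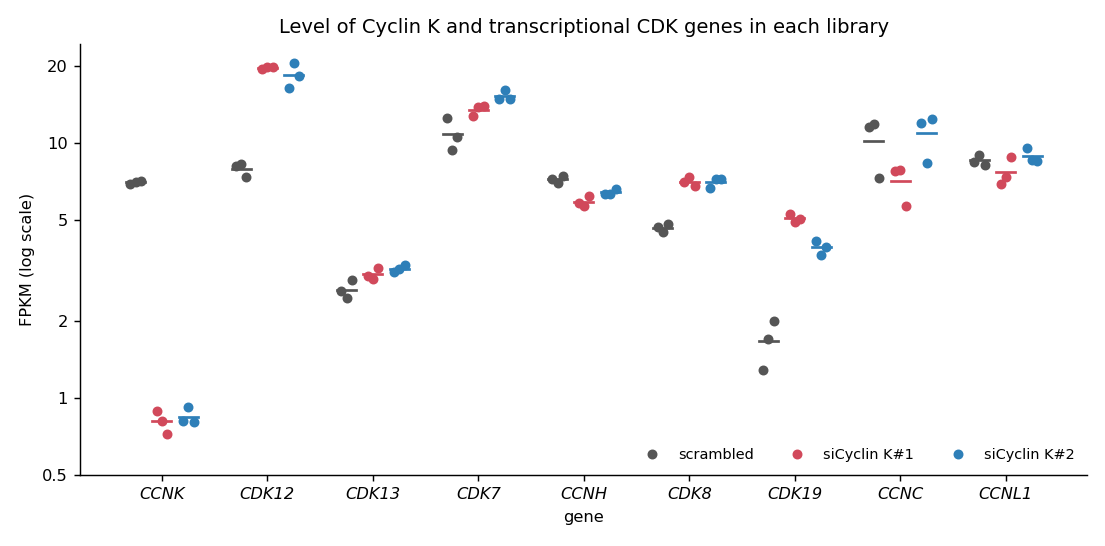
FPKM (log scale, vertical axis) of the 9 genes (horizontal axis) in each of the 9 libraries, with points for libraries and a line for the mean of each group of 3. CCNK sits between 0.720 and 0.920 FPKM in the 6 siCyclin K libraries against 6.90 to 7.10 FPKM in scrambled ones, and CDK12 and CDK19 lie higher in every siCyclin K library than in any scrambled one.

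Against scrambled, 6 of the 9 genes passed the test with siCyclin K#1 (4 higher and 2 lower), at a Benjamini-Hochberg adjusted p under 0.05 in limma over 21048 genes. Of all genes tested, 44.8% passed in this comparison (26.8% higher, 18.1% lower), and of the 11243 genes whose mean reached 1 FPKM, as all 9 did, 64.3% (36.5% higher, 27.8% lower). With siCyclin K#2, 7 of the 9 passed (5 higher and 2 lower), against 34.9% of all genes (19.8% higher, 15.2% lower) and 53.5% of those at 1 FPKM or more (31.1% higher, 22.4% lower). With both siRNAs taken as 1 group of 6 libraries, 6 of the 9 passed (4 higher and 2 lower), against 28.6% of all genes (17% higher, 11.5% lower) and 42% of the genes at 1 FPKM or more (25.2% higher, 16.9% lower). With siCyclin K#1 the members' share is thus near that of genes of like level, and no count was tested against the background. The 4 genes that rose with each siRNA compare with 15.4% of all genes and 24.2% of those at 1 FPKM or more, and the 2 that fell with each with 10.3% and 16.3%. These 2 are CCNH and CCNK. CCNK is the target of both siRNAs, so its place in every count above was set by the design. The median log2 difference of the 9 genes was 0.20 with siCyclin K#1 and 0.27 with siCyclin K#2, where the median of all genes was 0.10 and 0.01. Both comparisons share the 3 scrambled libraries.

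All 6 siCyclin K libraries lay above all 3 scrambled libraries for 5 genes (CDK12, CDK13, CDK7, CDK8 and CDK19), as they did for 18.9% of all genes and 27.5% of those at 1 FPKM or more. They lay below them for 2 genes (CCNK, the target, and CCNH), as for 13.7% and 20.2%. For each of these 7 genes the exact two-sided permutation test of 6 against 3 libraries gave p = 0.0238, the smallest this design can give. Full separation of the groups forces that value, so it restates the separation and adds nothing to it. For 3 against 3 libraries the smallest possible p is 0.1. The study's methods and figure legend give thresholds of more than 3-fold change with p below 0.01. Its results text speaks of at least 2-fold instead. In the limma fit the 3-fold thresholds were met by 4.67% of genes with siCyclin K#1, 1.94% with siCyclin K#2 and 2.29% with both together. CCNK was the only one of the 9 to meet them on that scale, in all 3 comparisons. CDK12 (2.48 and 2.31 times scrambled with siCyclin K#1 and siCyclin K#2) and CDK19 (2.96 and 2.29 times) lay between 2-fold and 3-fold. CDK19 with siCyclin K#1 lies at the 3-fold threshold, just below it on that scale and just above it as a ratio of mean FPKM values.

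**Figure D2:**
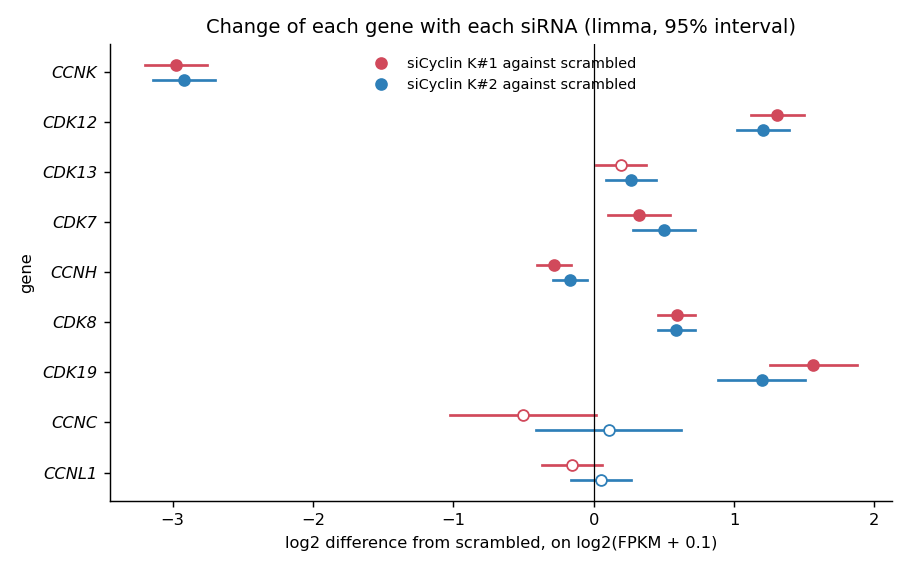
Log2 difference from scrambled (horizontal axis, on log2(FPKM + 0.1)) of each gene with siCyclin K#1 (red) and siCyclin K#2 (blue), with 95% intervals from limma; filled points passed at an adjusted p under 0.05 and open points did not. CCNK lies near -3 with either siRNA, CDK12 and CDK19 lie above 1, and the intervals of CCNC and CCNL1 include 0.

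CCNK (ENSG00000090061), the target, lies on chromosome 14 at 99481169 to 99535044 on the plus strand of GRCh38. Each siRNA has a guide strand whose seed (bases 2 to 8) pairs with 7 bases of the target, and both matches fall in the coding region of the annotated protein-coding mRNA with 3524 nucleotides. The 2 sites are shown because they are where the guides pair with CCNK. Each line gives 30 nucleotides of the GENCODE 29 transcript, with the match to the seed in capitals.
siCyclin K#1 site in CCNK: gcaaagcaactcaaagGTGATAAaaacaaa
siCyclin K#2 site in CCNK: accatcaagtttgattTACAGGTagaacat
The siCyclin K#1 site spans the junction of exons 5 and 6 of 11 (the printed bases lie within chr14:99500856-99501369, with the intron left out), and its capitals are nucleotides 641 to 647. The siCyclin K#2 site lies inside exon 5 at chr14:99500802-99500831, with the capitals at nucleotides 587 to 593. Neither 7-base match occurs again in this mRNA.

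CCNK was at 6.90, 7.06 and 7.10 FPKM in the scrambled libraries. It was at 0.891, 0.816 and 0.720 FPKM with siCyclin K#1 and at 0.809, 0.920 and 0.802 FPKM with siCyclin K#2. The 6 siCyclin K libraries overlap each other and lie far below the scrambled ones. The mean fell from 7.02 ± 0.107 to 0.809 ± 0.0857 FPKM (SD, n = 3) with siCyclin K#1, or 11.5% of scrambled, and to 0.844 ± 0.0661 FPKM with siCyclin K#2, or 12% of scrambled. On the log2 scale the difference was -2.97 (SE 0.10, adjusted p = 7.86e-08) with siCyclin K#1 and -2.92 (SE 0.10, adjusted p = 2.33e-07) with siCyclin K#2, larger than the change of 99.73% and 99.96% of all genes. These values rest on 195 to 251 recovered reads per depleted library against 1847 to 1914 in the scrambled ones. Recovered reads of CCNK, like those of CDK7 and CCNH, are not whole numbers, so these counts are approximate.

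What remained of CCNK has a limit of its own. CCDC85C, a protein-coding gene on the opposite strand, shares 4893 exonic bases with CCNK, and its FPKM was 3.00 ± 0.169, 3.09 ± 0.0396 and 4.01 ± 0.121 (SD, n = 3) in scrambled, siCyclin K#1 and siCyclin K#2 libraries. Whether reads were counted by strand is not given in the sources used here, so CCNK's residual values may hold reads of CCDC85C. In bulk RNA, less CCNK in every cell and no CCNK in most cells cannot be told apart.

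CDK12 (ENSG00000167258, chromosome 17, 39461511 to 39564907, plus strand), the main catalytic partner of Cyclin K, rose with both siRNAs. Its levels were 8.12, 8.27 and 7.32 FPKM in scrambled libraries. With siCyclin K#1 they were 19.4, 19.8 and 19.8 FPKM, and with siCyclin K#2 they were 16.4, 20.6 and 18.3 FPKM. The lowest depleted library thus lay well above the highest scrambled one, and the siCyclin K#2 libraries spread around the tight siCyclin K#1 values. The mean went from 7.91 ± 0.510 to 19.7 ± 0.229 FPKM (249% of scrambled) and to 18.4 ± 2.14 FPKM (233%; SD, n = 3). The log2 difference was 1.31 (SE 0.08, adjusted p = 2.82e-06) with siCyclin K#1 and 1.21 (SE 0.08, adjusted p = 8.34e-06) with siCyclin K#2, a larger change than that of 90.58% and 93.47% of all genes. The same shares were 94.53% and 93.26% for CDK19 and 60.78% and 69.93% for CDK8. They were lower for CDK7 (37.05% and 63.3%), CCNH (33.07% and 24.89%) and CDK13 (23.55% and 38.95%).

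CDK13 (ENSG00000065883, chromosome 7, 39949646 to 40099580, plus strand), the paralog of CDK12 that also binds Cyclin K, moved far less. It was at 2.62, 2.46 and 2.89 FPKM in scrambled libraries, at 3.02, 2.92 and 3.23 FPKM with siCyclin K#1, and at 3.11, 3.21 and 3.33 FPKM with siCyclin K#2. Every depleted library was above every scrambled one, by a narrow margin between the highest scrambled and the lowest siCyclin K#1 library. The log2 difference was 0.20 (95% interval 0.02 to 0.38, adjusted p = 0.0713) with siCyclin K#1, which missed the threshold, and 0.27 (0.09 to 0.45, adjusted p = 0.0264) with siCyclin K#2, which passed. The siCyclin K#2 call was lost after median-ratio rescaling (adjusted p = 0.0668), after quantile normalization (0.139), and without scrambled replicate 1 or 2 or siCyclin K#2 replicate 2 or 3 (0.0629 to 0.0836). The siCyclin K#1 difference passed without scrambled replicate 3 (0.0329), among genes of at least 1 FPKM alone (0.0448) and with limma-voom on recovered reads (0.0238), but it shrank to 0.12 after median-ratio rescaling (adjusted p = 0.25) and to 0.03 after quantile normalization (adjusted p = 0.795).

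The summed level of CDK12 and CDK13 went from 10.6 ± 0.303 FPKM in scrambled libraries to 22.8 ± 0.294 FPKM with siCyclin K#1 and 21.6 ± 2.18 FPKM with siCyclin K#2 (SD, n = 3). CDK13 made up 25.2 ± 2.77% of that sum in scrambled libraries, 13.4 ± 0.595% with siCyclin K#1 and 15.0 ± 1.32% with siCyclin K#2. This share is per exon length, 25093 bases for CDK13 and 12773 for CDK12. In recovered reads, scrambled libraries averaged 2180 for CDK13 and 3301 for CDK12. The ratio of CCNK to CDK12 plus CDK13, in FPKM, was 0.665 ± 0.0273 in scrambled libraries, 0.0356 ± 0.00422 with siCyclin K#1 and 0.0391 ± 0.00222 with siCyclin K#2. The fall of this ratio holds both the loss of CCNK and the rise of CDK12. Ratios of mRNA levels are descriptions, were given no test, and say nothing of the amounts of protein.

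CDK7 (ENSG00000134058, chromosome 5, 69234795 to 69277430, plus strand), the kinase of TFIIH, was at 12.5, 9.40 and 10.5 FPKM in scrambled libraries. It was at 12.7, 13.8 and 13.9 FPKM with siCyclin K#1 and at 14.9, 16.1 and 14.8 FPKM with siCyclin K#2. Scrambled replicate 1 almost reached the lowest siCyclin K#1 library, while the siCyclin K#2 libraries stood clear of all scrambled ones. The log2 difference was 0.32 (SE 0.10, adjusted p = 0.0233) with siCyclin K#1 and 0.50 (SE 0.10, adjusted p = 0.00353) with siCyclin K#2. The siCyclin K#1 call was lost after median-ratio rescaling (0.0723) and without scrambled replicate 2 or 3 or siCyclin K#1 replicate 2 or 3 (0.0633 to 0.0692), whereas the siCyclin K#2 call stayed at an adjusted p of 0.0157 or less in all 19 alternatives run. Of the 75-base stretches of CDK7 transcripts, 0.738% also occur in another gene, most of them in the pseudogene CDK7P1.

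CCNH (ENSG00000134480, chromosome 5, 87318416 to 87413019, minus strand), the cyclin of CDK7, was the only one of the 9 besides CCNK to pass the test as lower with either siRNA. Scrambled libraries had 7.21, 6.95 and 7.44 FPKM of it. With siCyclin K#1 it was at 5.80, 5.67 and 6.20 FPKM, and with siCyclin K#2 at 6.32, 6.31 and 6.58 FPKM. The groups did not overlap, but the change was small: the log2 difference was -0.29 (SE 0.05, adjusted p = 0.00209) with siCyclin K#1 and -0.17 (SE 0.05, adjusted p = 0.0388) with siCyclin K#2. The siCyclin K#2 call was lost in 7 of 19 alternatives, namely with eBayes without trend (0.0729) and without scrambled replicate 1 or 3, siCyclin K#1 replicate 1 or any of the siCyclin K#2 replicates (0.0509 to 0.118). RASA1, on the opposite strand, shares 771 exonic bases with CCNH and rose from 14.0 ± 0.0936 to 25.0 ± 1.20 and 25.6 ± 1.69 FPKM (SD, n = 3, adjusted p = 3.67e-06 and 5.4e-06). Its reads in CCNH's value, if any, cannot be told apart from CCNH's own.

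CDK7 and its cyclin thus moved in opposite directions. The ratio of CCNH to CDK7 was 0.674 ± 0.0862 in scrambled libraries, 0.437 ± 0.0241 with siCyclin K#1 and 0.421 ± 0.0262 with siCyclin K#2 (FPKM over FPKM, SD, n = 3), and no depleted library reached the lowest scrambled ratio of 0.576.

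CDK8 (ENSG00000132964, chromosome 13, 26254104 to 26405238, plus strand), the first kinase of the Mediator module, was at 4.68, 4.46 and 4.79 FPKM in scrambled libraries. With siCyclin K#1 it was at 7.01, 7.37 and 6.77 FPKM, and with siCyclin K#2 at 6.66, 7.22 and 7.23 FPKM. The depleted libraries of both siRNAs overlap each other and stand well above the scrambled ones. The mean rose from 4.65 ± 0.167 to 7.05 ± 0.303 FPKM (152%) and 7.03 ± 0.328 FPKM (151%; SD, n = 3). The log2 difference was 0.59 with each siRNA (SE 0.06, adjusted p = 4.19e-05 and 7.03e-05), and it stayed between 0.47 and 0.63 in all alternatives run.

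CDK19 (ENSG00000155111, chromosome 6, 110609978 to 110815958, minus strand), the paralog that takes the place of CDK8 in the module, had the lowest level of the 9 genes in scrambled libraries, 1.29, 1.71 and 2.00 FPKM. It was at 5.24, 4.89 and 5.03 FPKM with siCyclin K#1 and at 4.14, 3.64 and 3.91 FPKM with siCyclin K#2. The 3 groups did not overlap, and each siCyclin K#1 library was above each siCyclin K#2 library. The mean went from 1.67 ± 0.354 to 5.05 ± 0.175 FPKM (303%) and 3.90 ± 0.252 FPKM (234%; SD, n = 3). On the log2 scale the difference was 1.56 (SE 0.14, adjusted p = 2.03e-05) with siCyclin K#1 and 1.20 (SE 0.14, adjusted p = 0.000169) with siCyclin K#2. The fold with siCyclin K#1 fitted on log2(FPKM + 0.1) was 2.96, just under the 3-fold threshold of the study's methods. The ratio of the mean FPKM values, 303%, lies just above it. Scrambled libraries gave 327 to 485 recovered reads of CDK19.

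The 2 Mediator kinases therefore changed their proportion as well as their level. CDK8 plus CDK19 summed to 6.31 ± 0.425 FPKM in scrambled libraries, 12.1 ± 0.269 FPKM with siCyclin K#1 and 10.9 ± 0.183 FPKM with siCyclin K#2 (SD, n = 3). CDK19's share of this sum was 26.2 ± 4.08% in scrambled libraries, 41.8 ± 1.61% with siCyclin K#1 and 35.6 ± 2.47% with siCyclin K#2, with no overlap between the groups.

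**Figure D3:**
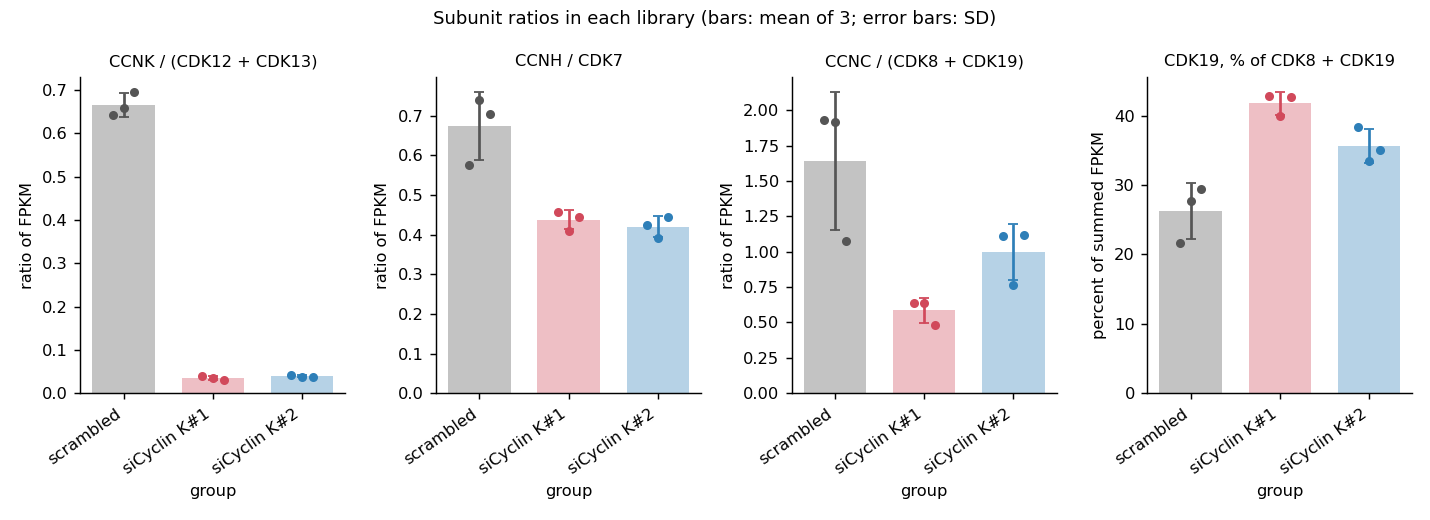
Ratios of FPKM within complexes (vertical axes) in each group (horizontal axes), with bars for the mean of 3 libraries, error bars for the SD and points for libraries. CCNK over CDK12 plus CDK13 drops from 0.665 to 0.0356 and 0.0391, CCNH over CDK7 from 0.674 to 0.437 and 0.421, and CDK19's share rises from 26.2% to 41.8% and 35.6%, while CCNC over its kinases spreads widely among scrambled libraries.

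CCNC (ENSG00000112237, chromosome 6, 99542380 to 99568973, minus strand), the cyclin of both Mediator kinases, passed no test. It was at 11.5, 11.8 and 7.30 FPKM in scrambled libraries, at 7.77, 7.85 and 5.65 FPKM with siCyclin K#1, and at 11.99, 8.34 and 12.4 FPKM with siCyclin K#2. In each group 1 library lay well below the others (replicate 3, replicate 3 and replicate 2), and the groups overlap. The log2 difference was -0.50 (95% interval -1.02 to 0.02, adjusted p = 0.108) with siCyclin K#1 and 0.11 (-0.41 to 0.63, adjusted p = 0.767) with siCyclin K#2. Without scrambled replicate 3 these became -0.73 (adjusted p = 0.0218) and -0.12 (adjusted p = 0.715), so that library decides the first call and the second sign. CCNC varied by 21.2% within groups (pooled coefficient of variation), more than 91.62% of the 6310 genes with a mean between 3 and 20 FPKM, whose median was 6.63%. It rests on 1074 to 2285 recovered reads per library, whose counting error alone gives a coefficient of variation of 2.22% to 2.76%.

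Set against its kinases, CCNC over CDK8 plus CDK19 was 1.64 ± 0.488 in scrambled libraries, 0.585 ± 0.0911 with siCyclin K#1 and 0.998 ± 0.200 with siCyclin K#2 (FPKM over FPKM, SD, n = 3). The lowest scrambled ratio, 1.08, lies below the highest siCyclin K#2 ratio, 1.12, and above the highest with siCyclin K#1, 0.640.

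CCNL1 (ENSG00000163660, chromosome 3, 157146508 to 157160760, minus strand) was at 8.40, 8.99 and 8.21 FPKM in scrambled libraries, at 6.87, 7.38 and 8.81 FPKM with siCyclin K#1, and at 9.55, 8.55 and 8.46 FPKM with siCyclin K#2. The 3 groups overlap. The log2 difference was -0.16 (95% interval -0.37 to 0.06, adjusted p = 0.22) with siCyclin K#1 and 0.05 (-0.16 to 0.27, adjusted p = 0.721) with siCyclin K#2. Without siCyclin K#1 replicate 3 the first became -0.26 and passed (adjusted p = 0.0264), so that library decides it. These intervals exclude a change of the size seen for CDK12 or CDK8 in either direction.

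In the direct comparison of siCyclin K#1 with siCyclin K#2, which uses no scrambled library as its reference, 0 of the 9 genes passed in limma, against 29.4% of all genes and 44.5% of those at 1 FPKM or more. At an unadjusted p under 0.05 in limma there were 2, CDK19 and CCNC. CDK19 was 0.37 higher on the log2 scale with siCyclin K#1 (95% interval 0.06 to 0.68, adjusted p = 0.0765), and CCNC differed by -0.61 (interval -1.13 to -0.09, adjusted p = 0.0789). Limma-voom on recovered reads called CDK19 alone (adjusted p = 0.018), as did a pseudocount of 1 (0.0378). CCNK itself differed by -0.06 between the siRNAs (interval -0.28 to 0.17), CDK12 by 0.10 (-0.09 to 0.29) and CDK8 by 0.00 (-0.13 to 0.14). These intervals allow CCNK and CDK12 to differ by up to about 0.28 and 0.29 on that scale, so they bound a difference and do not show that the siRNAs acted alike.

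The order of the levels, which depends on the exon length annotated for each gene, changed with depletion. In scrambled libraries CDK7 led with a mean of 10.8 FPKM, followed by CCNC, CCNL1, CDK12, CCNH, CCNK, CDK8, CDK13 and CDK19. The ranges of neighbours overlapped from CDK7 down to CCNK, so the order of neighbours among these 6 is not resolved. Genes further apart could be separate: the lowest CDK7 library, 9.40 FPKM, lay above every library of CCNL1, CDK12, CCNH and CCNK. CCNK and CDK8, CDK8 and CDK13, and CDK13 and CDK19 were separate too. With either siRNA, CDK12 led, CDK7 came next, and CDK8, CCNH, CDK19, CDK13 and CCNK closed the order with separate ranges from one to the next. Between them, CCNL1 and CCNC overlapped with either siRNA. With siCyclin K#1, CCNC also overlapped CDK8 and CCNH, and CCNL1 overlapped CDK8. CDK12 thus passed from the middle of the order to its top, and CCNK from the middle to the bottom.

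The genes whose pattern over the 9 libraries was most like that of CCNK were SOWAHC (Pearson r = 0.9991), COX5B (0.9979), CHAMP1 (0.9967), CD47 (0.9963) and RPS24 (0.996), out of 11242 genes whose mean reached 1 FPKM. The most opposed were VCAN (-0.999), TNS3 (-0.9989) and KIF1C (-0.9984). SOWAHC went from 13.5 FPKM in scrambled libraries to 7.99 and 8.12 FPKM, and KIF1C, a kinesin motor, from 2.77 to 21.2 and 18.6 FPKM. Among the 9 genes, r with CCNK was -0.98 for CDK12 and for CDK8, -0.95 for CDK19, -0.84 for CDK13, -0.83 for CDK7, 0.85 for CCNH, 0.26 for CCNC and 0.16 for CCNL1. The 9 libraries fall into scrambled and depleted ones, so r mainly tells how cleanly a gene separates those groups, and it is given as a description on log2(FPKM + 0.1).

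Genes that work with these kinases were mixed in direction. Among genes at 1 FPKM or more, siCyclin K#1 gave 36.5% higher and 27.8% lower, siCyclin K#2 gave 31.1% higher and 22.4% lower, and no list was tested against these shares or against the 9 genes. Of 7 other transcriptional CDKs and cyclins tested (9 listed, with CDK11A and CDK11B not analysed here), 1 rose and 1 fell with siCyclin K#1, and 1 rose and 2 fell with siCyclin K#2, with a median log2 difference of -0.05 and -0.06. CDK9 is the kinase of the elongation factor P-TEFb, and the paper lists it too among the partners of Cyclin K. It rose from 4.57 FPKM to 9.21 and 8.32 FPKM (log2 difference 1.00, adjusted p = 7.21e-06, and 0.85, adjusted p = 3.3e-05). CCNT1, its cyclin, fell from 10.1 FPKM to 7.01 and 8.24 FPKM (-0.53, adjusted p = 4.63e-05, and -0.30, adjusted p = 0.00222). In this pair too the kinase rose while the cyclin fell, as for CDK7 and CCNH. CCNT1 was named because it passed with each siRNA, so the pair was selected. Cyclin T2 (CCNT2), of the same list, did not pass (-0.05, adjusted p = 0.862, and -0.06, adjusted p = 0.858). Nor did CCNC, the cyclin of CDK8 and CDK19.

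Of the 4 remaining genes of the Mediator kinase module, 1 rose and 2 fell with each siRNA (median -0.21 and -0.15). MED12, which activates the kinase of the module, rose with both (0.55, adjusted p = 3.62e-05, and 0.48, adjusted p = 0.000122). MED13, which joins the module to the rest of Mediator, fell (-0.42, adjusted p = 6.09e-05, and -0.31, adjusted p = 0.000536). The second gene to fall was MED12L, a paralog of MED12 at 0.475 FPKM or less in every library.

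In the core of TFIIH, 6 of 7 genes were tested (GTF2H4 was not analysed here), of which 1 rose and 2 fell with siCyclin K#1, and 1 rose and 1 fell with siCyclin K#2 (median -0.09 and -0.12). ERCC3, the helicase that opens the promoter, fell with both (-0.34, adjusted p = 0.0029, and -0.42, adjusted p = 0.00118). With quantile normalization, 4 of the 6 passed with siCyclin K#2 (1 higher, 3 lower). GTF2H3 was measured on a feature joined with another gene, and its values cannot be separated from that gene's.

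Among 12 CTD phosphatases and CTD binding proteins, 3 rose and 4 fell with siCyclin K#1, and 4 rose and 3 fell with siCyclin K#2 (median -0.13 and 0.09). RPRD1A, which binds the phosphorylated CTD, fell furthest, from 11.3 FPKM to 2.46 and 3.48 FPKM (-2.17, adjusted p = 2.97e-07, and -1.67, adjusted p = 2.47e-06). RPAP2, a CTD phosphatase, fell by less (-0.57, adjusted p = 0.00107, and -0.68, adjusted p = 0.000539). The phosphatases SSU72 (0.65, adjusted p = 2.31e-05, and 0.25, adjusted p = 0.00812) and CTDP1 (0.23, adjusted p = 0.0158, and 0.39, adjusted p = 0.00133) rose. The CTDP1 call with siCyclin K#1 was lost after median-ratio rescaling (0.0745), after quantile normalization (0.452) and without scrambled replicate 2 or siCyclin K#1 replicate 1 (0.0523 and 0.0548). PCF11 and SCAF8 were measured on features joined with other genes. Reads could not be recovered for CTDP1, nor for CCND1 among the cell cycle genes, so limma-voom did not cover them.

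Of 11 cell cycle CDKs and cyclins tested (12 listed), 2 rose and 8 fell with siCyclin K#1, and 2 rose and 6 fell with siCyclin K#2, with a median log2 difference of -0.34 and -0.18. The lower shares over all genes at 1 FPKM or more were 27.8% and 22.4%. CCND1 (Cyclin D1) fell by 2.11 and by 1.81 on the log2 scale (adjusted p = 5.32e-09 and 2.12e-08), and CCNE2 (Cyclin E2) fell by 2.01 and by 0.42 (adjusted p = 3.11e-06 and 0.0332). CDK2, the kinase of Cyclin E, fell as well (-0.88, adjusted p = 0.000898, and -0.49, adjusted p = 0.0266). CCNB2 (Cyclin B2) rose (0.42, adjusted p = 2.07e-05, and 0.92, adjusted p = 5.54e-07). With siCyclin K#2, the CCNE2 call was lost without any one of the scrambled replicates or siCyclin K#2 replicate 3 (0.0616 to 0.0942), the last of which moved its difference to -0.28. The CDK2 call was lost without any one of the siCyclin K#2 replicates (0.0564 to 0.074), and its difference moved to -0.31, still past the test, without scrambled replicate 1. The plot of log2 differences by list places the 9 genes beside these groups.

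**Figure D4:**
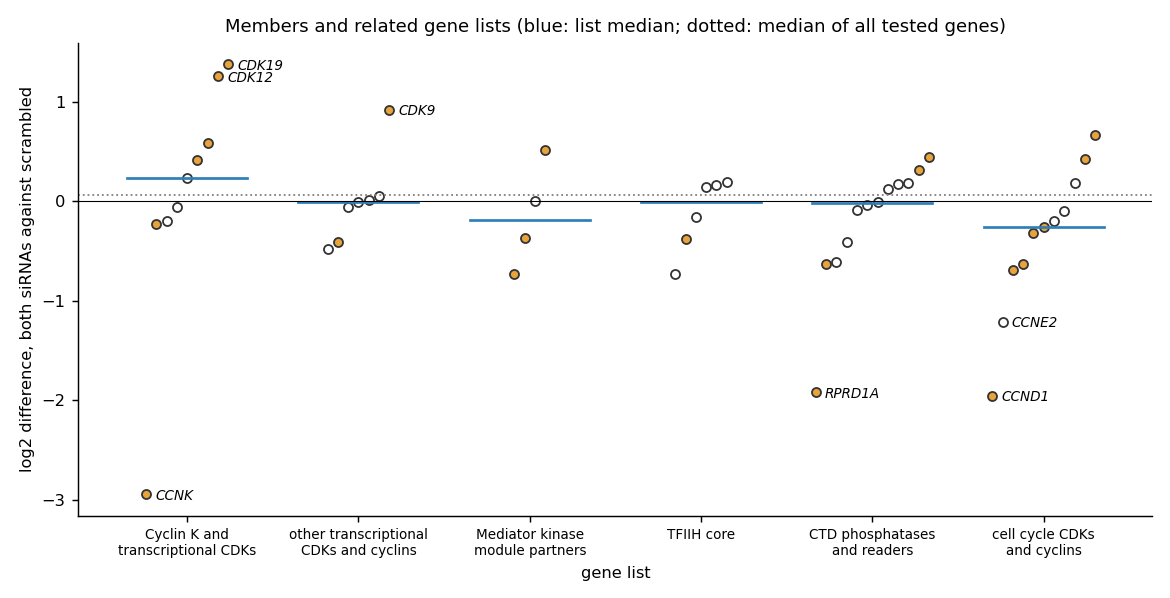
Log2 difference of both siRNAs against scrambled (vertical axis, on log2(FPKM + 0.1)) of each tested gene by list (horizontal axis), with filled points for an adjusted p under 0.05, a blue line for the median of the list and a dotted line for the median of all genes, 0.06. The 9 genes span from CCNK at -2.94 to CDK19 at 1.38 with a median of 0.23, and CDK9, RPRD1A and CCND1 stand far from their lists' medians.

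The seed matches of both siRNAs were also looked for in the longest annotated 3′ UTR of each gene, since an siRNA can lower other transcripts through its seed. GTGATAA, the match for siCyclin K#1, occurred in 9.452% of 18810 genes, and TACAGGT, the match for siCyclin K#2, in 11.717%, on the strand of the mRNA. Among the 9 genes, CDK13 held the first once, and CCNC held each once. No other of the 9 held either in that 3′ UTR. The 3 sites are shown so that they can be set beside the levels of CDK13 and CCNC given above, with the match in capitals.
CDK13, siCyclin K#1 match: atcacttaaaaGTGATAAaattttaagttg
CCNC, siCyclin K#1 match: cttgaaggagaGTGATAAataaaatttgga
CCNC, siCyclin K#2 match: tacagatttacTACAGGTattctgaaccag
They lie at chr7:40098170-40098199 on the plus strand, in the last exon of CDK13, and at chr6:99542510-99542539 and chr6:99542676-99542705 on the minus strand, in the last exon of CCNC (GRCh38). The log2 difference of CDK13 with siCyclin K#1 was 0.20, which did not pass the test. CCNC differed by -0.50 with siCyclin K#1 and by 0.11 with siCyclin K#2, neither past the test. A match of 7 letters is a description and shows no binding. Effects of the seeds on the levels of these genes were not tested.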

How the data were processed

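The authors had paired reads of 9 A549 libraries sequenced on the Illumina HiSeq X platform. The deposited values are FPKM for each feature and library, and the submitters' processing notes name StringTie 1.3.3b. The aligner, the annotation release and the strand setting are not given in the sources used here. Feature coordinates of the genes reported match GENCODE 29 on GRCh38. Of 56252 features, 25125 had no reference gene and 1344 joined several. Rows of 1 gene were summed, and the 21048 genes reaching 0.1 FPKM in 3 libraries or more were kept. Since FPKM values are not counts, the test was that of limma (version 3.58.1, R version 4.3.3), with lmFit, eBayes with trend and Benjamini-Hochberg adjustment, on log2(FPKM + 0.1). A fold change on this scale understates the change of low genes. Each siRNA was compared with scrambled and with the other in 1 fit of 3 groups, and both siRNAs with scrambled in a fit of 2 groups. An exact two-sided permutation test (scipy 1.17.1) was run for each of the 9 genes. The fit was tested on simulated data.

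FPKM times exon length came in whole steps for 84.01% of nonzero values (within 0.02 of a read), which gave the depth of each library. Replicates differed by more than sampling noise. Libraries with the same replicate number showed no shared deviation (mean r = -0.00585 over 9 pairs), so replicate numbers were not used as a block. Alternatives were other pseudocounts and filters, rescaling by median ratios, quantile normalization, the replicate block, eBayes with no trend, omission of each library in turn and, added after seeing the data, limma-voom on recovered reads. The genes and lists were chosen with earlier results of these data known. Named genes are the 10 listed, up to 4 genes a list with a mean FPKM of at least 1 that passed in the same direction with each siRNA, by size of change, and the 5 genes most like and 3 most unlike CCNK by Pearson r. CCNT2, MED12L, RASA1, CCDC85C and the cell type markers were named besides these.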

Additional observations from a re-analysis of the deposited data

Results flagged for a closer look

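Tested directly between the siRNAs (limma, Benjamini-Hochberg over all genes), none of the 9 genes passed (2 at an unadjusted p under 0.05, 1 with limma-voom). Of the 13 related genes named, 6 differed between the siRNAs, a share near the 44.5% of all genes at 1 FPKM or more that did. Given as siCyclin K#1 minus siCyclin K#2, CCNE2 differed by -1.59 on the log2 scale (adjusted p = 3.51e-05), CCNB2 by -0.50 (2.23e-05), RPRD1A by -0.49 (0.00361), CCND1 by -0.30 (0.000236) and CCNT1 by -0.23 (0.0102). SSU72 was higher with siCyclin K#1 by 0.39 (adjusted p = 0.00102). Over all genes tested the share was 29.4%.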

How the results depend on the processing

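The number of the 9 genes called ranged from 5 to 7 with siCyclin K#1, 5 to 7 with siCyclin K#2 and 4 to 6 with both siRNAs when each library was left out in turn. The calls of CCNK, CDK12, CDK8 and CDK19 against scrambled stood in all 19 alternatives run with each siRNA. Between the siRNAs, 0 genes were called, 1 with a pseudocount of 1 and with limma-voom on recovered reads, and 0 to 2 when leaving out libraries (1 without scrambled replicate 1, siCyclin K#1 replicate 3 or siCyclin K#2 replicate 2, and 2, CDK19 and CCNC, without scrambled replicate 3). With a replicate block, 5 genes were called with siCyclin K#1 (CDK7 lost, adjusted p = 0.051), 7 with siCyclin K#2, 5 with both siRNAs (CCNH lost, adjusted p = 0.0821) and 0 between siRNAs; the numbers do not pair the libraries. For both siRNAs, CCNH was also lost with eBayes without trend (0.0742) and in 8 of the 9 fits without a library (up to 0.149), CDK7 without scrambled replicate 2 or 3 (0.0693 and 0.0531), and CDK13 passed among genes of at least 1 FPKM (0.0359) and with limma-voom (0.0157). Signs turned for small differences that passed no test: CCNC with siCyclin K#2 to -0.12 without scrambled replicate 3 (-0.12 to 0.29 over all libraries left out), CCNL1 with siCyclin K#2 to -0.0019 after median-ratio rescaling, -0.036 after quantile normalization and -0.0033 without siCyclin K#2 replicate 1 (-0.0033 to 0.090 over libraries), CCNK between siRNAs to 0.016 without siCyclin K#1 replicate 3 and 0.0012 without siCyclin K#2 replicate 2 (-0.12 to 0.016), and CDK8 between siRNAs to -0.017 after median-ratio rescaling, -0.021 after quantile normalization, -0.029 without siCyclin K#1 replicate 2 and -0.036 without siCyclin K#2 replicate 1 (-0.036 to 0.032). RPAP2 between siRNAs turned to -0.021 after quantile normalization, under which the TFIIH core had 4 genes called with siCyclin K#2 in place of 2. With the block, CCNE2 with siCyclin K#2 was lost too (adjusted p = 0.0719). The cause was not tested. Quantile normalization moved the median log2 difference of all genes with siCyclin K#1 by -0.12, from 0.10 to -0.02. Among the 9 genes, depth limits CCNK in depleted libraries and CDK19 in scrambled ones most, and of the related genes named, CCNE2 with siCyclin K#1 (139 to 177 recovered reads) and MED12L (67 to 191) rest on fewer reads still.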

Other observations

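AL110504.1 (ENSG00000258749), annotated as an antisense RNA, overlaps the span of CCNK on the same strand and shares no exonic base with it. It was picked after its values were seen. Its FPKM was 1.67 ± 0.482 in scrambled libraries, 0.42 ± 0.107 with siCyclin K#1 and 0.521 ± 0.0346 with siCyclin K#2 (SD, n = 3), a log2 difference of -1.75 (limma, adjusted p = 0.000205) and -1.48 (adjusted p = 0.000859). The highest depleted library, 0.560 FPKM, lay below the lowest scrambled one, 1.33 FPKM. The cause was not tested. AL137784.2, an antisense RNA that shares 528 exonic bases with CCNC, was at 0.51, 0.288 and 0.206 FPKM (adjusted p = 0.0413 with siCyclin K#1 and 0.00842 with siCyclin K#2), far below CCNC itself.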
